A study of Mus musculus with 24 samples.

Results

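The genes described here are 31 mouse genes of the tricarboxylic acid (TCA) cycle, of the entry of pyruvate into it and of the reactions that refill it. They were taken by name from a list of enzymes and carriers. By role they were sorted into 7 genes of pyruvate entry, 15 of the cycle and 9 of anaplerosis and transamination. The 15 include Aco1, Idh1 and Mdh1, which encode cytosolic forms of cycle enzymes. All 31 are among the 55487 genes of each deposited table and among the 14690 genes that passed the filter on low values, so each was tested. Aconitase of mitochondria and succinate dehydrogenase, which complete the cycle, lie outside the list and are given beside it.

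The study asked how 8 days of hindlimb casting, and the peptide MOTS-c given during it, change gene expression in the gastrocnemius, the large calf muscle, of male C57BL/6J mice labelled 12 weeks old. Casted mice with MOTS-c (n = 8) had both hindlimbs casted for 8 days and received 15 mg/kg of MOTS-c per day in 2 intraperitoneal injections a day. Casted mice (n = 8) wore the same casts and were injected with sterilized water on the same schedule, and uncasted mice (n = 8) had no cast and received the same water injections. MOTS-c is a short peptide encoded in mitochondrial DNA. The design has 3 groups, none of them uncasted with MOTS-c, so the peptide was not compared without casting.

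Pyruvate made by glycolysis crosses the inner mitochondrial membrane through a carrier of paired subunits and is turned into acetyl-CoA by the pyruvate dehydrogenase complex. The cycle oxidizes the acetyl group in a ring of steps, each with its own enzyme, and hands electrons to the respiratory chain that makes ATP in working muscle. Intermediates that leave the ring are replaced by anaplerosis: pyruvate carboxylase, malic enzymes, glutamate dehydrogenase and the transaminases exchange carbon between amino acids, pyruvate and the cycle.

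Poly-adenylated RNA was sequenced, 1 library for each of the 24 mice, and deposited as TPM, a unit that gives each gene's part of all transcripts in a library after allowing for transcript length. TPM add up to the same total everywhere, which hides the sequencing depth, so no counting error can be given. Between 19832 and 21755 genes were above 0 in a library. Markers of skeletal muscle fibres fixed by name were all present, and Ckm, the muscle creatine kinase, had median scaled levels of 16510 TPM in casted muscle with MOTS-c, 15890 TPM in casted muscle and 29140 TPM in uncasted muscle. One library stood apart: on the first principal component of all tested genes, MOTS-c replicate 5 lay at -17.8, against 13.7 to 29.6 for the other casted libraries with MOTS-c.

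The scale of the values decides part of what follows. TPM were rescaled so that a trimmed mean of log ratios between libraries is 0, after which the median gene differed by 0.01 on the log2 scale between casted and uncasted muscle. On the TPM as deposited, the median gene was 0.39 higher in casted muscle, and each of the 31 genes had a higher log2 difference than on the rescaled values. Levels and differences are on the rescaled values unless the deposited ones are named, and log2 differences are of scaled TPM + 1, which understates changes of low genes. In bulk muscle, fewer cells of a type and less RNA per cell cannot be told apart.

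Casting lowered most of these genes relative to the typical gene. In casted against uncasted muscle, 22 of the 31 genes were lower, 2 were higher (Aco1 and Me2) and 7 did not pass (limma, Benjamini-Hochberg adjusted p under 0.05 over all tested genes). Over all 14690 genes, 27.7% were called lower and 28.7% higher. The median log2 difference of the 31 genes was -0.53, against 0.01 for all genes. On deposited TPM, 10 of the 31 were lower and 10 higher, where 7.43% of all genes were lower and 62.2% higher, and their median was -0.01 against 0.39 for all genes. As shares of the library total these genes were thus split in direction, and relative to the typical gene most were lower. In 19 of the 31 genes every casted library lay below every uncasted one, and in 2 every casted library lay above, against 10.9% and 11.5% of all genes.

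**Figure D1:**
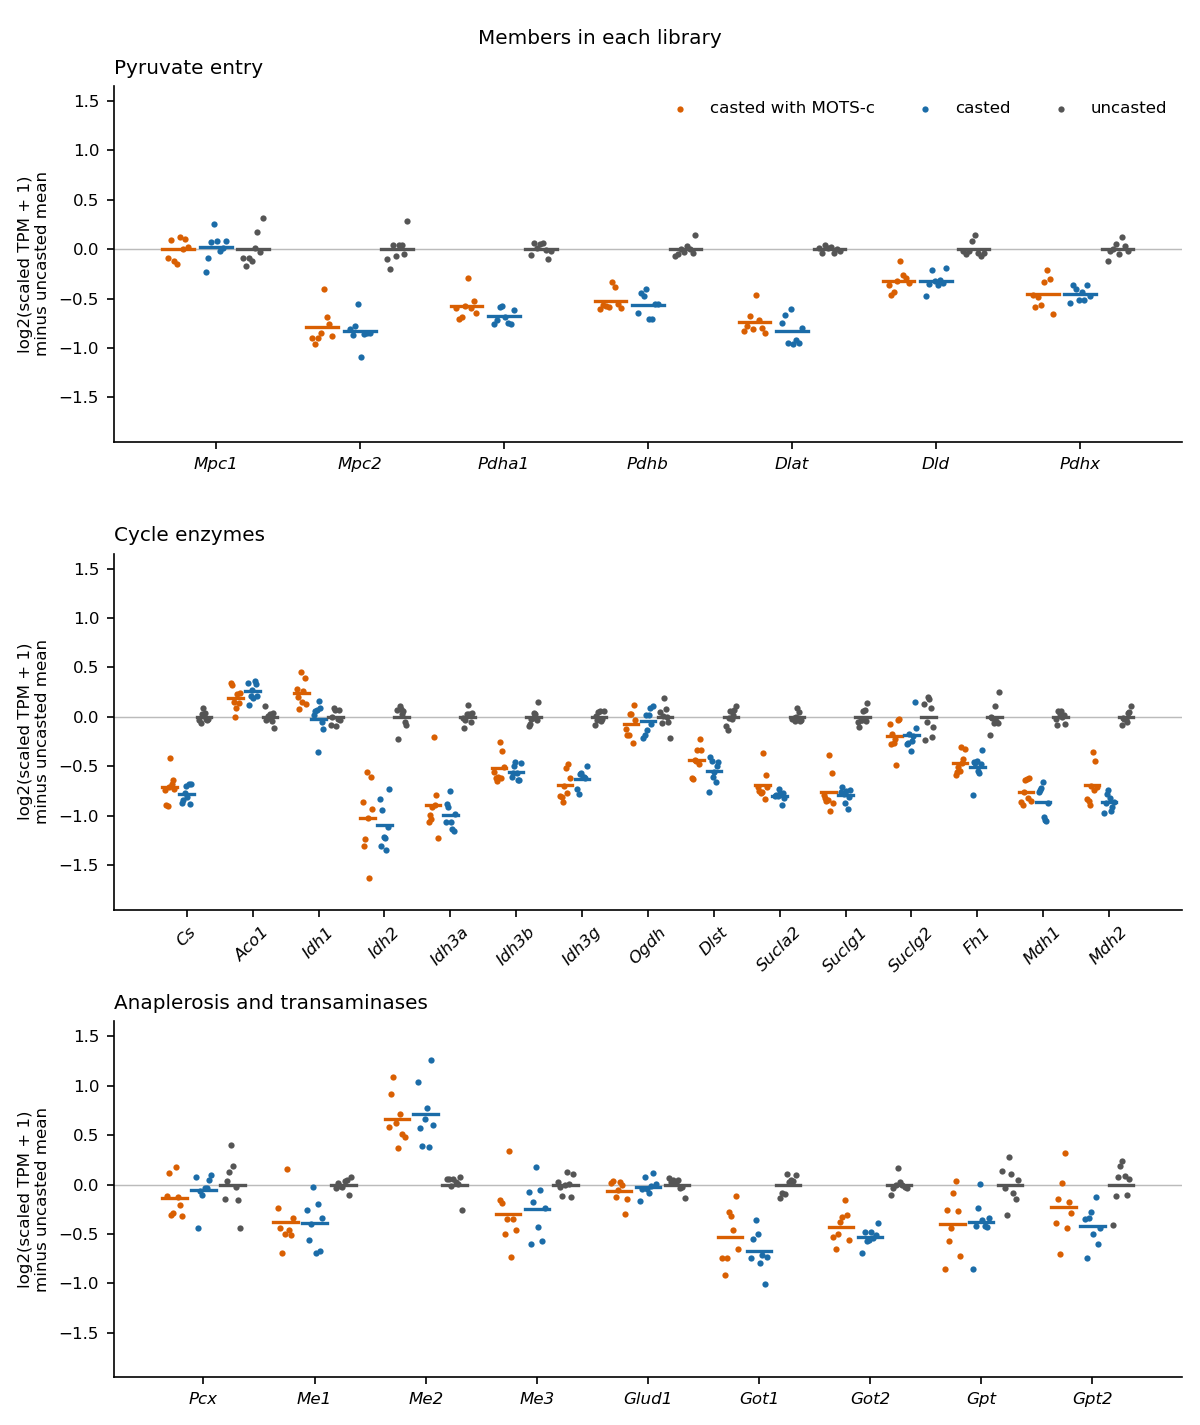
Each point is 1 library of 1 gene, as log2(scaled TPM + 1) minus the mean of the 8 uncasted libraries, for pyruvate entry, the cycle and anaplerosis. Most casted points, with and without MOTS-c, lie below 0, while every casted library without MOTS-c lies above it for Aco1 and Me2; on deposited TPM the 31 genes split into 10 lower and 10 higher.

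The 31 genes together held a median of 5647 deposited TPM in casted muscle with MOTS-c, 5660 in casted muscle and 5959 in uncasted muscle. In rescaled TPM the sums were 5010 in casted muscle with MOTS-c, 4845 in casted muscle and 7440 in uncasted muscle. As a share of the library total they made up 0.566% in casted and 0.596% in uncasted muscle, so the gap between groups was narrower on that scale.

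Among the 7 genes of pyruvate entry, 6 were lower in casted muscle and 1, Mpc1, did not pass, with a median log2 difference of -0.56 on the rescaled values. The same median was -0.05 on deposited TPM, where 3 were lower and 2 higher. The carrier's subunits parted. Mpc2 (ENSMUSG00000026568, chr1:165460637-165481214, plus strand), the subunit that pairs with Mpc1 to carry pyruvate into mitochondria, had a lowest, median and highest scaled level of 149.9, 178 and 218 TPM in casted muscle, against 279.6, 320.5 and 391 TPM in uncasted muscle. No casted library reached an uncasted one, and the log2 difference was -0.83 (SE 0.08, limma adjusted p = 5.3e-09; -0.32 on deposited TPM). Mpc1 (ENSMUSG00000023861, chr17:8282904-8297661, plus strand) ran from 467 to 651 TPM around 564 in casted muscle, against 487 to 682 around 525 in uncasted muscle. These ranges lie over each other, and the log2 difference was 0.02 (SE 0.07, limma adjusted p = 0.83), although on deposited TPM it was 0.54 (limma adjusted p = 3.8e-08).

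Mpc1 has a near-copy: the annotated Mpc1-ps is 99.7% identical over 330 aligned bases, and reads may have been split between them. Its median scaled level was 42.5 TPM in casted and 65.4 TPM in uncasted muscle (log2 difference -0.60, SE 0.15, limma adjusted p = 0.0017). With its values added to Mpc1, an alternative chosen after the data were seen, the log2 difference of Mpc1 was -0.03 (limma adjusted p = 0.72). The gene 4930506C21Rik shares 480 exonic bases with Mpc1 on the other strand, at no more than 0.491 TPM in any library. Near-copies of Glud1, Got2, Me1, Pdhb and Suclg2 had medians of at most 7.10 TPM in any group, and adding them changed no call in casted against uncasted muscle. Exons of Pdha1, Got2 and Me3 also overlap genes of the other strand by 434 to 603 bases, with at most 3.17 TPM in any library. The sources used here do not say whether reads were assigned by strand.

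All 5 members of the pyruvate dehydrogenase complex were lower in casted muscle on the rescaled values, and in each no casted library reached an uncasted one. Dlat (ENSMUSG00000000168, chr9:50634633-50659780, minus strand), the E2 subunit that passes the acetyl group to coenzyme A, had a lowest, median and highest level of 59.3, 64 and 76 TPM in casted muscle, against 114, 117 and 119.9 TPM in uncasted muscle. Its log2 difference was -0.82 (SE 0.06, limma adjusted p = 6.7e-11), and -0.31 on deposited TPM. Pdha1 (ENSMUSG00000031299, chrX:160122209-160138413, minus strand) encodes the catalytic E1 alpha subunit, the target of the complex's kinases. It spanned 237 to 269 TPM with a median of 247 in casted muscle, against 373 to 420.2 with a median of 402 in uncasted muscle (log2 difference -0.68, SE 0.05, limma adjusted p = 3.5e-10; -0.16 on deposited TPM). Pdhb (ENSMUSG00000021748, chr14:8165996-8173025, minus strand), the E1 beta subunit, lay between 139 and 172 TPM in casted muscle (median 154), against 217 to 251 TPM in uncasted muscle (median 224). Its log2 difference of -0.56 (SE 0.06, limma adjusted p = 9.1e-09) was -0.05 on deposited TPM and no longer passed there (limma adjusted p = 0.40).

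The binding and shared subunits had smaller log2 differences. Pdhx (ENSMUSG00000010914, chr2:103021075-103073513, minus strand), which anchors E3 to the complex, had 45.1, 47.9 and 51.4 TPM as lowest, median and highest level in casted muscle, against 60.8, 65.9 and 71.9 TPM in uncasted muscle. The log2 difference was -0.45 (SE 0.06, limma adjusted p = 4.4e-07) and turned to 0.06 on deposited TPM. Dld, the E3 dihydrolipoamide dehydrogenase that the 2-oxoglutarate and glycine systems also use, had the mildest change of the complex. Its medians were 152 TPM in casted and 189 TPM in uncasted muscle, with a log2 difference of -0.32 (SE 0.05, limma adjusted p = 1.2e-05) that turned to 0.19 on deposited TPM.

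In the cycle class, 11 of 15 genes were lower in casted muscle and Aco1 was higher, with a median log2 difference of -0.62. Idh1, Ogdh and Suclg2 did not pass. Of these exceptions Aco1 and Idh1 encode cytosolic forms, while the cytosolic Mdh1 was lower. On deposited TPM 7 of the 15 were lower and 4 higher, with a median of -0.11. Idh2 and Idh3a, genes of mitochondrial isocitrate dehydrogenases, fell furthest. Idh2 (ENSMUSG00000030541, chr7:80094846-80115392, minus strand), the NADP-linked mitochondrial enzyme, had a lowest, median and highest level of 75.1, 85.1 and 115 TPM in casted muscle, against 165, 198 and 208 TPM in uncasted muscle. All casted libraries lay below all uncasted ones (log2 difference -1.09, SE 0.12, limma adjusted p = 5.5e-08; -0.58 on deposited TPM). Idh3a (ENSMUSG00000032279, chr9:54586334-54604661, plus strand), the catalytic subunit of the NAD-linked enzyme that drives the cycle, ran from 239.8 to 318 TPM around 263 in casted muscle, against 495 to 579.7 around 538 in uncasted muscle. The groups did not overlap (log2 difference -0.99, SE 0.10, limma adjusted p = 7.2e-09; -0.48 on deposited TPM). The other 2 subunits of that enzyme, Idh3b and Idh3g, had smaller log2 differences, -0.56 (SE 0.06) and -0.62 (SE 0.06), both past the threshold on rescaled values and -0.04 and -0.11 on deposited TPM.

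Idh1 (ENSMUSG00000025950, chr1:65158616-65186500, minus strand), the NADP-linked isocitrate dehydrogenase of cytosol and peroxisomes, did not pass. It had 11.5, 15.5 and 17 TPM as lowest, median and highest level in casted muscle, against 14, 14.9 and 16.1 TPM in uncasted muscle. These ranges overlap, and the log2 difference of -0.02 (SE 0.07, limma adjusted p = 0.85) was 0.47 on deposited TPM.

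Citrate synthase and the cytosolic aconitase went opposite ways on the rescaled values. Cs (ENSMUSG00000005683, chr10:128337734-128362479, plus strand), which joins acetyl-CoA to oxaloacetate and is widely used as a measure of mitochondrial content, had a lowest, median and highest level of 218, 233 and 253 TPM in casted muscle, against 386, 399 and 431 TPM in uncasted muscle. Casted libraries all lay lower (log2 difference -0.78, SE 0.06, limma adjusted p = 1.3e-10; -0.26 on deposited TPM). Aco1 (ENSMUSG00000028405, chr4:40143081-40198338, plus strand) is the cytosolic aconitase, which becomes an iron-responsive RNA-binding protein when it loses its iron-sulfur cluster. Its level was 8.67, 9.51 and 10.4 TPM in casted muscle, against 7.21, 7.89 and 8.59 TPM in uncasted muscle, again as lowest, median and highest. Here casted libraries all lay higher, by a small step of 0.26 on the log2 scale (SE 0.06, limma adjusted p = 3.8e-04; 0.72 on deposited TPM). The step was no longer called when a fold of at least 1.2 was required.

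The malate dehydrogenases fell together. Mdh2 (ENSMUSG00000019179, chr5:135778480-135790398, plus strand), the mitochondrial enzyme that closes the ring, lay between 387 and 453 TPM in casted muscle (median 416), against 714 to 819.8 TPM in uncasted muscle (median 748). Mdh1 (ENSMUSG00000020321, chr11:21556787-21572367, minus strand), its cytosolic partner in the malate-aspartate shuttle, lay between 219 and 288 TPM in casted muscle (median 258), against 431 to 475 TPM in uncasted muscle (median 459). Neither gene's groups overlapped. The log2 difference was -0.86 for Mdh2 (SE 0.07, limma adjusted p = 2.5e-10; -0.35 on deposited TPM). For Mdh1 it was -0.86 (SE 0.06, limma adjusted p = 1.1e-10; -0.34 on deposited TPM).

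Succinyl-CoA synthetase, which makes ATP or GTP directly in the cycle, is built from a common alpha subunit, Suclg1, and either the ATP-forming beta subunit Sucla2 or the GTP-forming beta subunit Suclg2. The beta subunits differed in response. Sucla2 (ENSMUSG00000022110, chr14:73525319-73596142, plus strand) had a lowest, median and highest level of 210.0, 225 and 235 TPM in casted muscle, against 379.7, 387 and 417 TPM in uncasted muscle. Every casted library was lower (log2 difference -0.80, SE 0.05, limma adjusted p = 2.8e-11; -0.28 on deposited TPM). Suclg2 (ENSMUSG00000061838, chr6:95473009-95718800, minus strand) had 38, 41.5 and 54 TPM in casted muscle, against 41, 49.1 and 56 TPM in uncasted muscle. Its groups overlapped, and the log2 difference of -0.18 (SE 0.08) just missed the threshold (limma adjusted p = 0.057) and turned to 0.33 on deposited TPM. It passed in 4 of the 24 fits that left out 1 library: without casted replicate 7 (-0.23, limma adjusted p = 0.014), without uncasted replicate 2 (-0.21, adjusted p = 0.027), without uncasted replicate 7 (-0.21, adjusted p = 0.032) and without MOTS-c replicate 6 (-0.18, adjusted p = 0.042). The alpha subunit Suclg1 moved as Sucla2 did, with medians of 144 TPM in casted and 241 TPM in uncasted muscle (log2 difference -0.79, SE 0.07, limma adjusted p = 5.9e-10; -0.28 on deposited TPM).

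Sequence from before the start sites of these beta subunits is shown because they are alternative partners of the same enzyme with different changes. It was read from RefSeq promoter windows of GRCm38.p6, which run from 250 bases before to 50 bases after each start site and were found for 28 of the 31 genes. The stretches below lie upstream of the start sites, outside annotated exons, and are written 5′ to 3′ on the gene's strand. The Sucla2 stretch has 96 bases and begins 250 bases before its start site, inside the annotated span of that gene. The Suclg2 stretch has 120 bases and begins 120 bases before its start site. They cover different distances from the start site and were not compared. Sucla2 is at chr14:73552536-73552631 on the plus strand and Suclg2 at chr6:95718847-95718966 on the minus strand.
Sucla2: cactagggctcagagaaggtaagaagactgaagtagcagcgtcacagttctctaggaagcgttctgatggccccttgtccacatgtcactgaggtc
Suclg2: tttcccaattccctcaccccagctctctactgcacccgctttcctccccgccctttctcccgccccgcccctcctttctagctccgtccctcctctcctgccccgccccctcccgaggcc
The windows of all 28 genes were searched, on both strands, for 3 motifs of factors known to act on nuclear genes of mitochondria: an ERR element, TNAAGGTCA, an NRF1 motif, GCGCANGCG, and an ETS/GABPA motif, CCGGAAGT. No matches of different motifs overlapped in the member windows. Capitals in the lines that follow mark the letters matched, in 30-base stretches at chr14:73552759-73552788 (plus strand) for Sucla2, chr11:6292532-6292561 (plus) for Ogdh, chr12:31351422-31351451 (minus) for Dld and chr12:85110822-85110851 (plus) for Dlst.
Sucla2, NRF1 motif on the opposite strand: ctgcgtctctgCGCCTGCGCggtgcccagg
Ogdh, NRF1 motif: ctaggtgttgtGCGCATGCGtaactcaact
Dld, NRF1 motif: cggcgatgacgtatatgttGCGCAGGCGca
Dlst, ETS/GABPA motif on the opposite strand: cggccggtctcACTTCCGGttgctgccggg
Some genes have more than 1 window, and the 28 genes had 37. The NRF1 letters were in 4 of these 37 windows, from 3 genes, and in 6.25% of all 32851 windows. The Ogdh windows with a match overlap and hold the same site, so the 4 windows count that site more than once. The ETS/GABPA letters were in 1 of the 37 and in 3.89% of all windows, and the ERR letters in 0 of the 37 and in 1.28% of all windows. Of the matched genes, Ogdh has 6 windows and Sucla2, Dld and Dlst have 1 each. Sucla2, Dld and Dlst were among the genes lower in casted muscle on the rescaled values, while Ogdh did not pass. Whether the letters go with the change in casted muscle was not tested. The member windows were rich in G and C, with a median of 61.7% against 52.7% in all windows, and held a median of 21 CpG against 7. A match describes these letters only.

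Ogdh, the E1 subunit of the 2-oxoglutarate dehydrogenase complex, did not pass, while the complex's E2 subunit Dlst fell on the rescaled values. Ogdh ran from 308 to 386 TPM around 351 in casted muscle, against 309 to 409.5 around 359.5 in uncasted muscle. Its log2 difference was -0.05 (SE 0.07, limma adjusted p = 0.57; 0.47 on deposited TPM). Dlst had medians of 118 TPM in casted and 171 TPM in uncasted muscle without overlap, a log2 difference of -0.55 (SE 0.06, limma adjusted p = 6.5e-08) that was -0.04 on deposited TPM. Fh1, the fumarase, had medians of 156 TPM in casted and 213 TPM in uncasted muscle, also without overlap. Its log2 difference of -0.51 (SE 0.06, limma adjusted p = 3.6e-07) was 0.00 on deposited TPM.

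Of the 9 genes of anaplerosis and transamination, 5 were lower in casted muscle, Me2 was higher, and Pcx, Me3 and Glud1 did not pass. Their median log2 difference was -0.38 on the rescaled values but 0.12 on deposited TPM, where none was lower and 4 were higher. The malic enzymes, which interconvert malate and pyruvate, split by form. Me2 (ENSMUSG00000024556), the NAD-linked mitochondrial form and the member with the lowest level, had 2.89, 3.65 and 6.17 TPM as lowest, median and highest level in casted muscle, against 1.5, 2.07 and 2.15 TPM in uncasted muscle. Every casted library was above every uncasted one (log2 difference 0.71, SE 0.11, limma adjusted p = 9.9e-06; 1.07 on deposited TPM). Me1 (ENSMUSG00000032418, chr9:86581371-86695953, minus strand), the cytosolic NADP-linked form, had 102, 128 and 163 TPM in casted muscle, against 154, 166 and 175 TPM in uncasted muscle. Its groups overlapped, and its log2 difference was -0.39 on the rescaled values (SE 0.10, limma adjusted p = 0.0015) but 0.12 on deposited TPM. Me3 (ENSMUSG00000030621, chr7:89632392-89854359, plus strand), the mitochondrial NADP-linked form, had 42.6, 56.4 and 74.2 TPM in casted muscle, against 59.8, 65.5 and 71.4 TPM in uncasted muscle. Its log2 difference of -0.25 (SE 0.12, limma adjusted p = 0.076) did not pass and turned to 0.26 on deposited TPM. It did pass without casted replicate 4, at -0.31 (limma adjusted p = 0.025), and, at its main size, without MOTS-c replicate 5 in the fit (limma adjusted p = 0.033).

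The aspartate transaminases, enzymes of the malate-aspartate shuttle, fell in both compartments on the rescaled values. Got1 (ENSMUSG00000025190, chr19:43499752-43524605, minus strand), the cytosolic one, had a lowest, median and highest level of 110.5, 134 and 174 TPM in casted muscle, against 202, 227 and 240.0 TPM in uncasted muscle. The groups were apart (log2 difference -0.68, SE 0.10, limma adjusted p = 2.8e-06; -0.16 on deposited TPM). Got2 (ENSMUSG00000031672, chr8:95864134-95888547, minus strand), the mitochondrial one, had 141, 158 and 174 TPM in casted muscle, against 213, 226 and 258 TPM in uncasted muscle. It too was without overlap (log2 difference -0.53, SE 0.06, limma adjusted p = 1.3e-07; -0.01 on deposited TPM). The alanine transaminases were lower with overlapping groups. Gpt2 (ENSMUSG00000031700, chr8:85492576-85527560, plus strand), the mitochondrial form, spanned 125 to 192 TPM in casted muscle (median 159.8), against 158 to 248 TPM in uncasted muscle (median 219.7). Its log2 difference was -0.42 (SE 0.12, limma adjusted p = 0.0031), and 0.09 on deposited TPM. Gpt, the cytosolic form, had medians of 9.59 TPM in casted and 12.9 TPM in uncasted muscle (log2 difference -0.38, SE 0.12, limma adjusted p = 0.0086; 0.09 on deposited TPM).

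Pyruvate carboxylase and glutamate dehydrogenase did not pass. Pcx (ENSMUSG00000024892, chr19:4510472-4621752, plus strand), which makes oxaloacetate from pyruvate, had a lowest, median and highest level of 31.2, 41.6 and 45.7 TPM in casted muscle, against 31.2, 42.9 and 56.8 TPM in uncasted muscle. The ranges overlap, with a log2 difference of -0.06 (SE 0.10, limma adjusted p = 0.66; 0.45 on deposited TPM). Glud1, which releases 2-oxoglutarate from glutamate, had medians of 76.5 TPM in casted and 79.3 TPM in uncasted muscle (log2 difference -0.02, SE 0.05, limma adjusted p = 0.75; 0.49 on deposited TPM).

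**Figure D2:**
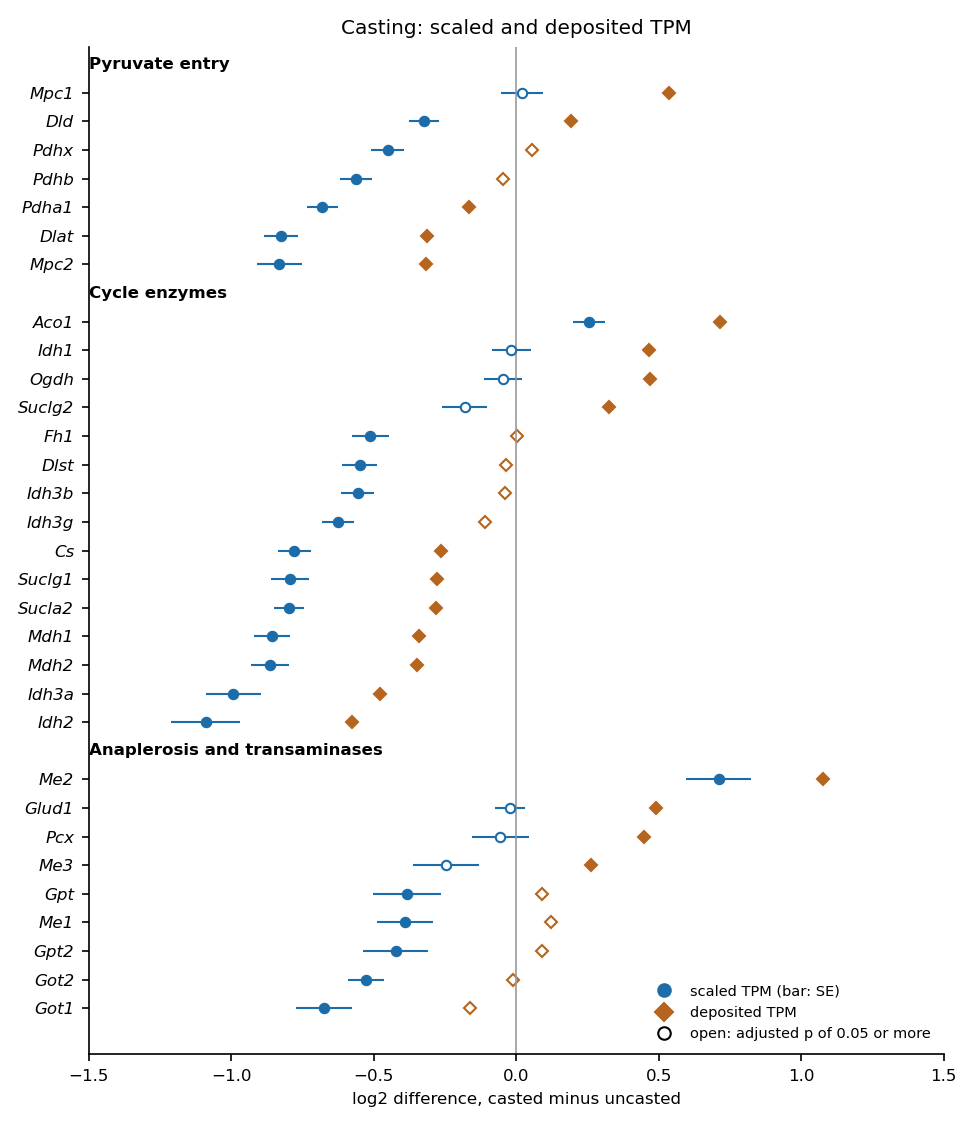
Log2 differences of casted minus uncasted muscle for the 31 genes by role, on rescaled and on deposited TPM. Rescaled values span -1.09 for Idh2 to 0.71 for Me2; on deposited TPM each gene lies further to the right, and genes such as Fh1 (0.00) and Dld (0.19) leave the negative side.

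A ratio of 2 genes within a library does not depend on the scaling between libraries. For 13 pairs of isoenzymes, compartment partners or alternative entries, the mean log2 ratio was compared between groups by an exact two-sided permutation test over all 12870 splits of 16 libraries, adjusted over the 26 tests of both comparisons. In casted against uncasted muscle 8 of the 13 ratios passed, 6 higher and 2 lower, and 6 of the 8 had no overlap between groups. The smallest p these splits can give is 0.000155, which adjusts to 0.000673.

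The ratio of Mpc1 to Mpc2 had a median of 3.07 in casted muscle (2.56 to 3.85), against 1.72 in uncasted muscle (1.56 to 1.86). The mean log2 ratio was 0.86 higher (exact permutation adjusted p = 0.000673), and 0.80 higher with the near-copy of Mpc1 added (adjusted p = 0.000673). The GTP-forming subunit gained on the ATP-forming one: Suclg2 to Sucla2 was 0.186 in casted muscle (0.162 to 0.235), against 0.125 in uncasted muscle (0.106 to 0.143). This was a log2 difference of 0.62 without overlap (exact permutation adjusted p = 0.000673). The ratios of Idh1 to Idh2 and of Aco1 to Cs, each a cytosolic over a mitochondrial enzyme, rose as well. Idh1 to Idh2 had a median ratio of 0.161 in casted muscle (0.119 to 0.214), against 0.0773 in uncasted muscle (0.0705 to 0.0911), a log2 difference of 1.08 (exact permutation adjusted p = 0.000673). Aco1 to Cs had 0.0396 in casted muscle (0.0369 to 0.0467), against 0.0194 in uncasted muscle (0.0181 to 0.0217), a log2 difference of 1.07 (exact permutation adjusted p = 0.000673).

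Both ratios that fell were to Me2. Me1 to Me2 had a median of 34.7 in casted muscle (16.8 to 50.1), against 81.2 in uncasted muscle (71.3 to 116), and its log2 difference was -1.36 (exact permutation adjusted p = 0.000673). Me3 to Me2 had a median of 13.9 in casted muscle (7.08 to 21.7), against 31.3 in uncasted muscle (27.8 to 46.9), with a log2 difference of -1.21 (exact permutation adjusted p = 0.000673). Pdhx to Dlat and Pcx to Pdha1 rose with overlapping groups. The first had a median of 0.729 in casted and 0.571 in uncasted muscle (log2 difference 0.38, exact permutation adjusted p = 0.00101). Pcx to Pdha1, carboxylation against decarboxylation of pyruvate, had a median of 0.171 in casted and 0.105 in uncasted muscle (log2 difference 0.62, exact permutation adjusted p = 0.00101).

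The other 5 ratios did not pass: log2 differences were 0.00 for Mdh1 to Mdh2, 0.01 for Gpt to Gpt2, 0.02 for Glud1 to Ogdh, -0.10 for Idh2 to Idh3a and -0.15 for Got1 to Got2. The last passed without casted replicate 3, at -0.20 (exact permutation adjusted p = 0.044). Compartment partners thus moved unequally for the NADP-linked isocitrate dehydrogenases, while with all libraries no unequal change was detected for malate dehydrogenase and the transaminases.

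**Figure D3:**
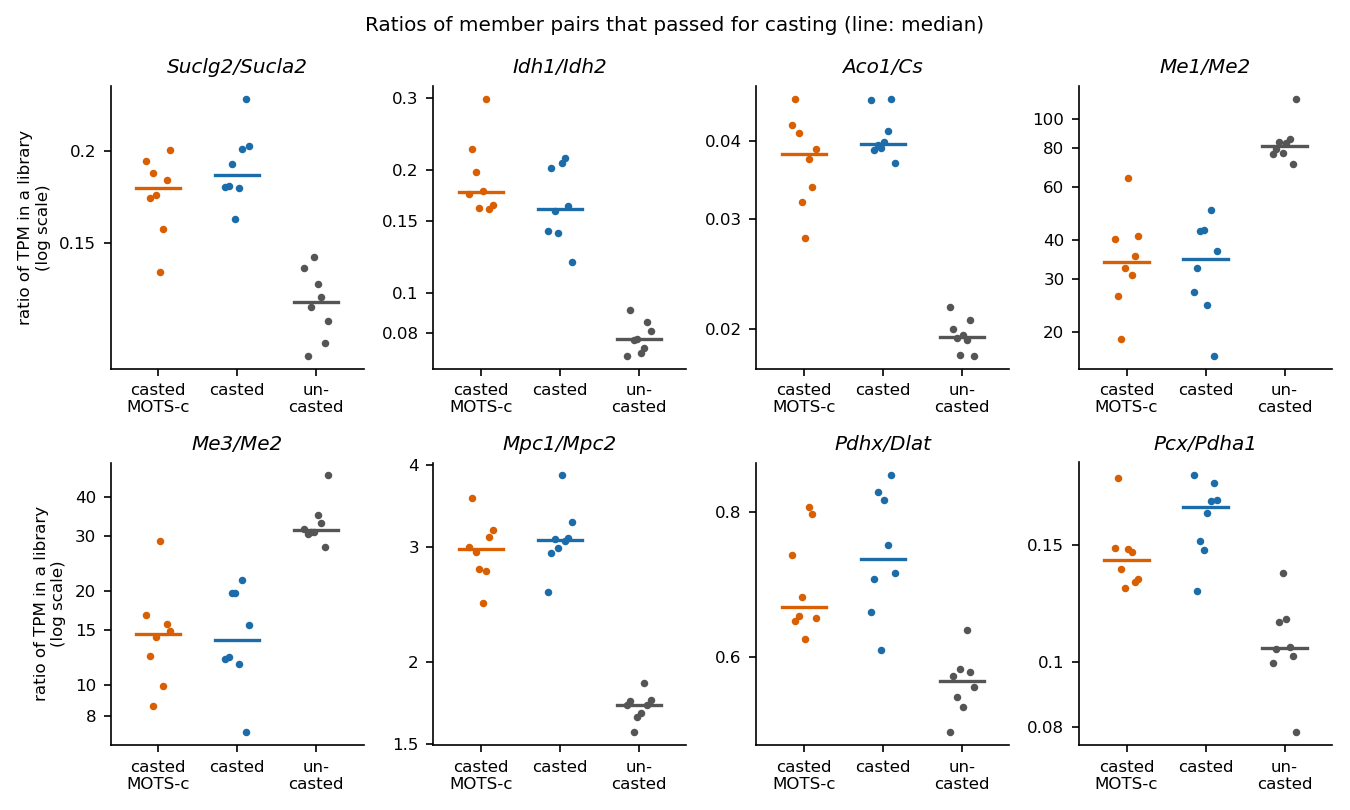
Ratio of scaled TPM of 2 genes in each library, on log axes, for the 8 pairs that passed between casted and uncasted muscle; points are libraries and lines are medians. In 6 of the 8 pairs no casted library overlaps an uncasted one, as for Mpc1 to Mpc2 with medians of 3.07 in casted and 1.72 in uncasted muscle, while Pdhx to Dlat and Pcx to Pdha1 overlap.

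The neighbouring steps, given from lists fixed by name, are set beside these. Of 9 genes of succinate dehydrogenase, its assembly factors and mitochondrial aconitase, 8 were lower and 1, the assembly factor Sdhaf1, higher in casted muscle (median log2 difference -0.47, and 0.03 on deposited TPM). Sdhb, the iron-sulfur subunit, had medians of 198 TPM in casted and 373 TPM in uncasted muscle (log2 difference -0.95, limma adjusted p = 7.2e-12; -0.43 on deposited TPM). Sdhd, a membrane anchor, had 119 TPM in casted and 219 TPM in uncasted muscle (log2 difference -0.86, limma adjusted p = 5.4e-10; -0.35 on deposited TPM). Of 5 tested of 7 mitochondrial carriers of citrate, malate, aspartate and glutamate, 4 were lower and 1 higher (median -0.72, and -0.20 on deposited TPM). The 2-oxoglutarate carrier Slc25a11 had medians of 110.0 TPM in casted and 189.9 TPM in uncasted muscle (log2 difference -0.78, limma adjusted p = 3.0e-10; -0.27 on deposited TPM). The glutamate carrier Slc25a22 had 5.24 TPM in casted and 11.3 TPM in uncasted muscle (log2 difference -0.75, limma adjusted p = 1.3e-04; -0.30 on deposited TPM).

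Regulators and cofactor genes of the complexes were mostly not called. Of 7 kinases, phosphatases and regulators of pyruvate dehydrogenase, 1 was lower and 6 did not pass (median -0.03, and 0.32 on deposited TPM). The one was Pdpr, the regulatory subunit of the phosphatase (log2 difference -0.44, limma adjusted p = 0.0063; 0.06 on deposited TPM). Of 5 genes of lipoate synthesis and transfer, the cofactor of Dlat and Dlst, 1 was higher and 1 lower (median 0.01, and 0.51 on deposited TPM). Mcat, which loads malonyl groups for mitochondrial fatty acid synthesis, was higher by 0.47 on the log2 scale (limma adjusted p = 3.3e-04). Lipt2 differed by -0.37 (limma adjusted p = 0.0057; 0.02 on deposited TPM).

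Other routes into and out of the cycle were mixed. For propionyl-CoA and glutamine, 6 of 7 genes were tested, with 3 lower and 1 higher (median -0.25, and 0.25 on deposited TPM). Pccb, a subunit of propionyl-CoA carboxylase, had a log2 difference of -0.40 (limma adjusted p = 1.9e-06; 0.11 on deposited TPM). Glul, glutamine synthetase, was higher by 0.53 (limma adjusted p = 0.031), a call lost without any of 5 single libraries. In the purine nucleotide cycle, which releases fumarate, 2 of 6 genes were lower and 1 higher (median -0.03, and 0.40 on deposited TPM), and the isoforms of AMP deaminase went opposite ways. Ampd3, the form of red cells and many tissues, had a lowest, median and highest level of 36.8, 65.9 and 96.5 TPM in casted muscle, against 5.84, 6.82 and 7.96 TPM in uncasted muscle (log2 difference 2.99, limma adjusted p = 1.0e-08). Ampd1, the muscle form, had 357, 456 and 712 TPM in casted muscle, against 1031, 1124 and 1267 TPM in uncasted muscle (log2 difference -1.24, limma adjusted p = 1.0e-06; -0.73 on deposited TPM). Neither form's groups overlapped. Of 3 genes of cataplerosis, Pck2, the mitochondrial phosphoenolpyruvate carboxykinase, was lower, with a log2 difference of -0.29 (limma adjusted p = 0.021; 0.09 on deposited TPM).

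Lists of other muscle functions were lower as well. Complex I of the respiratory chain had 34 of 35 subunits lower and 0 higher (median -0.64, and -0.12 on deposited TPM), and glycolysis 12 of 13 lower and 0 higher (median -0.78, and -0.27). Muscle fibre markers were lower in 11 of 12, with a median of -0.88 (-0.37 on deposited TPM), and their summed deposited level had a median of 10.8% of the total in casted and 14.3% in uncasted muscle. Summed scaled levels of 10 adipocyte markers ran from 3647 to 5504 TPM in casted and from 2465 to 3330 TPM in uncasted muscle. Most of that sum was 1 gene, Car3, with medians of 4131 TPM in casted and 2550 TPM in uncasted muscle. Of the 10 markers 3 were higher (Car3, Pnpla2 and Retn), 1 was lower (Fabp4) and 6 did not pass, among them Adipoq, Plin1, Cidec and Cfd. The sum of 8 macrophage markers ran from 106 to 254 TPM in casted and from 85.4 to 115 TPM in uncasted muscle, with 6 higher and 0 lower. Endothelial markers were lower in 6 of 7 and higher in 1 (sums of 72.6 to 105 TPM in casted and 96.1 to 140.2 TPM in uncasted muscle), and fibroblast markers lower in 4 of 6 (284 to 754 TPM in casted and 528 to 812 TPM in uncasted muscle). No marker was at 0 in any library, and the part of these shifts in the members' values was not tested.

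MOTS-c during casting changed none of the 31 genes past the threshold. In casted muscle with MOTS-c against casted muscle, 0 of 31 were called (limma, adjusted p under 0.05), where 0.0136% of all 14690 genes were higher and 0.00681% lower. Without adjustment 3 of the 31 had a p under 0.05, and 1986 of all genes. The log2 differences of the 31 genes ran from -0.08 to 0.26 with a median of 0.04, against -0.005 for all genes, and on deposited TPM the median was -0.04. By role the medians were 0.04 for pyruvate entry, 0.07 for the cycle and -0.01 for anaplerosis and transamination. No gene of the pathway and marker lists passed either. Summed muscle markers ran from 82160 to 148000 scaled TPM in casted muscle with MOTS-c and from 76480 to 119400 in casted muscle. Without adjustment, 6 of 8 macrophage, 5 of 10 adipocyte, 4 of 6 fibroblast, 3 of 7 endothelial and 0 of 12 muscle markers had a p under 0.05 in this comparison. The part of these markers in the members' values was not tested.

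The 3 genes of smallest unadjusted p, chosen so, were Idh1, Mdh2 and Sucla2. Idh1 had a lowest, median and highest level of 16, 17.8 and 21 TPM in casted muscle with MOTS-c, against 11.5, 15.5 and 17 TPM in casted muscle. The groups overlap slightly, and the log2 difference was 0.26 (SE 0.07, limma unadjusted p = 7.2e-04, adjusted p = 0.13). Mdh2 had 408, 457 and 591 TPM in casted muscle with MOTS-c, against 387, 416 and 453 TPM in casted muscle (log2 difference 0.17, SE 0.07, limma unadjusted p = 0.017, adjusted p = 0.29). Sucla2 had 220.2, 235 and 303 TPM in casted muscle with MOTS-c, against 210.0, 225 and 235 TPM in casted muscle (log2 difference 0.11, SE 0.05, limma unadjusted p = 0.046, adjusted p = 0.37). The highest value of Mdh2 and of Sucla2 in casted muscle with MOTS-c was that of replicate 5, the library that stood apart. Without that library the log2 difference was 0.12 for Mdh2 and 0.07 for Sucla2, and 0.27 for Idh1, and again 0 of 31 genes were called.

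**Figure D4:**
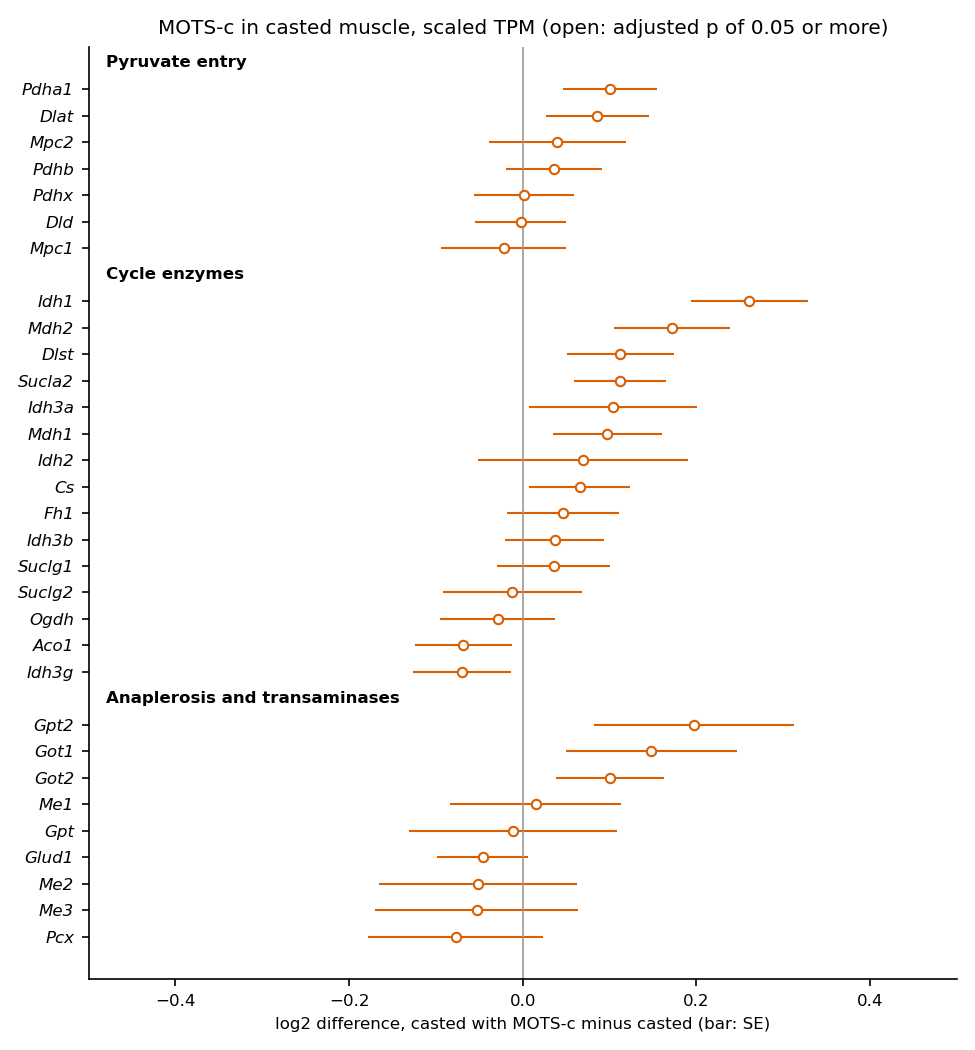
Log2 differences of casted muscle with MOTS-c minus casted muscle for the 31 genes by role, with SE bars, on rescaled TPM. All points lie between -0.08 and 0.26, Idh1 furthest to the right, and none has an adjusted p under 0.05.

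None of the 13 ratios passed between casted muscle with MOTS-c and casted muscle. The smallest p was that of Pcx to Pdha1, with a median of 0.142 in casted muscle with MOTS-c (0.129 to 0.189), against 0.171 in casted muscle (0.128 to 0.191). Its log2 difference was -0.18 (exact permutation p = 0.0716, adjusted p = 0.207). It passed without casted replicate 2, at -0.23 (exact permutation adjusted p = 0.0494), and without MOTS-c replicate 2, at -0.24 (adjusted p = 0.0444), so single libraries decide whether it passes. Casted replicate 2 held the lowest Pcx level of its group. Mpc1 to Mpc2 had a median of 2.97 in casted muscle with MOTS-c and 3.07 in casted muscle (log2 difference -0.06, exact permutation adjusted p = 0.669). Idh1 to Idh2 had 0.177 in casted muscle with MOTS-c and 0.161 in casted muscle (log2 difference 0.21, exact permutation adjusted p = 0.412).

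Casted replicates 1 to 4 and 5 to 8 lie in separate ranges on the first principal component, with no batch named in the labels, at 6.4 to 25.8 and at 29.5 to 36.5. Against replicates 5 to 8 alone, 1 of the 31 genes was called higher with MOTS-c: Mdh1, at 0.24 on the log2 scale (limma adjusted p = 0.025). Over all 14690 genes that fit called 678 higher and 838 lower, where the fit with all libraries called 2 higher and 1 lower. Replicates 5 to 8 are the casted libraries at the high end of a component computed from these same data. That fit therefore cannot separate MOTS-c from differences among casted libraries. Against replicates 1 to 4 alone 0 of the 31 were called, and Mdh1 differed by -0.04. Over all genes that fit called 1 higher and 1 lower. The counts of casted against uncasted muscle were 22 lower and 2 higher with replicates 1 to 4, and 23 lower and 2 higher with replicates 5 to 8. Over all 14690 genes they were 2914 lower and 3037 higher, and 4070 lower and 4185 higher.

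Casted muscle with MOTS-c was also compared with uncasted muscle, a comparison that shares libraries with both others. Here 23 of the 31 genes were lower and 3 higher (limma, adjusted p under 0.05), where 24.7% of all genes were lower and 26% higher. On deposited TPM, 11 were lower and 8 higher, where 1019 of all 14690 genes were lower and 8808 higher. The genes called higher were Aco1, Me2 and Idh1. Idh1 differed by 0.24 on the log2 scale (SE 0.07, limma adjusted p = 0.0041) in casted muscle with MOTS-c against uncasted muscle, beside -0.02 in casted against uncasted muscle. Gpt2 differed by -0.23 (SE 0.12, limma adjusted p = 0.11; 0.21 on deposited TPM), beside -0.42 in casted against uncasted muscle. Suclg2 differed by -0.19 (limma adjusted p = 0.047; 0.24 on deposited TPM), and 15 of the 24 fits that left out 1 library lost that call.

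The classes were also followed library by library. The median log2 difference of the 31 genes from the uncasted mean ran from -0.59 to -0.29 over casted libraries with MOTS-c, from -0.69 to -0.44 over casted libraries and from -0.05 to 0.05 over uncasted ones. For pyruvate entry it ran from -0.65 to -0.33 in casted muscle with MOTS-c and from -0.70 to -0.44 in casted muscle. For the cycle it ran from -0.76 to -0.34 in casted muscle with MOTS-c and from -0.76 to -0.49 in casted muscle. Anaplerosis and transamination spread more widely, from -0.50 to 0.16 in casted muscle with MOTS-c and from -0.51 to -0.05 in casted muscle. In each class the highest library with MOTS-c was replicate 5.

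**Figure D5:**
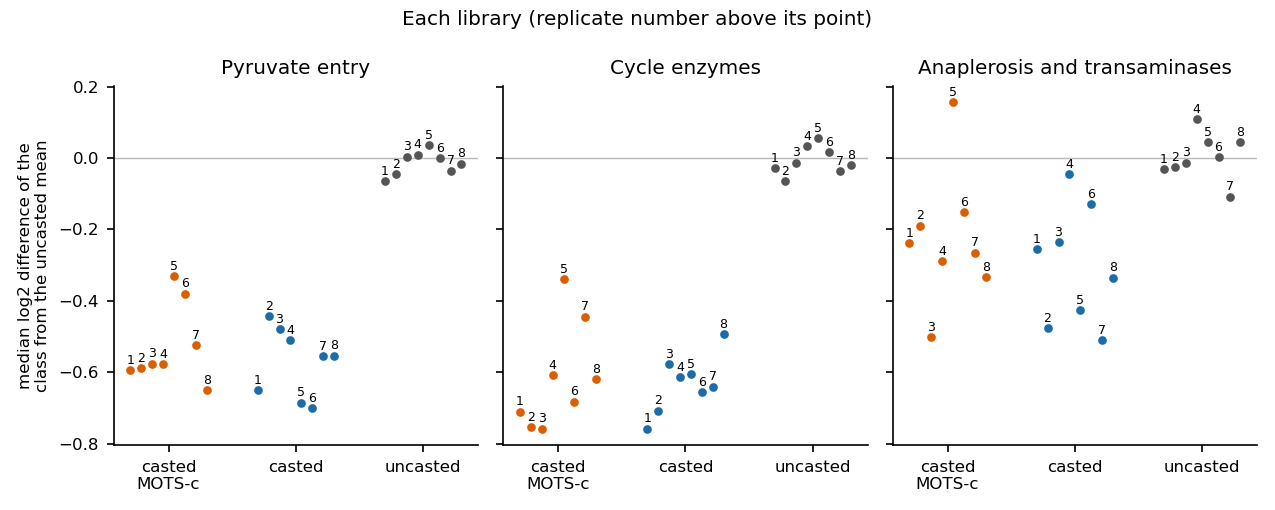
Median log2 difference of each class from the uncasted mean in each library, on rescaled TPM, with the replicate number beside its point. Casted libraries, with and without MOTS-c, lie below uncasted ones for pyruvate entry and the cycle, while MOTS-c replicate 5 is the highest of its group in every class.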

How the data were processed

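RNA was isolated with TRIzol followed by a column, and poly-adenylated RNA was captured, per the labels' protocols. The deposited values are TPM per Ensembl gene, 1 table per mouse. Per the submitters' processing notes, FastQC, STAR and RSEM were used with GRCm38.p6; versions, annotation release and strandedness are not given in the sources used here. Symbols and coordinates came from GENCODE M21 (GRCm38).

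TPM were rescaled here by an unweighted trimmed mean of log ratios (trimming 30% of the log ratios and 5% of the average levels from either end). The filter asked for 0.5 TPM or more in 8 or more libraries and left 14690 genes to test. All 24 libraries entered 1 limma 3.58.1 fit of 3 group means (R 4.3.3) on log2(scaled TPM + 1), with a mean-variance trend, two-sided tests and Benjamini-Hochberg adjustment over all tested genes at 0.05. The fit was tested on simulated data before use. Ratios of unscaled values used exact permutation tests. Near-copies were transcripts with at least 95% identity over at least 300 bases (blastn 2.17.0). Each library is labelled as a separate mouse.

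The members, lists, pairs and tests were chosen with earlier results of these data known. Full values are given for the 4 largest changes past the threshold in each role, for members against their role's direction, for both genes of each ratio that passed and, with MOTS-c, for the 3 smallest unadjusted p; from each list, the 2 largest past the threshold are named. Alternatives were deposited TPM, median-of-ratios scaling, TPM without mitochondrially encoded genes, a pseudocount of 0.1, no filter, only the groups compared, group weights, the replicate block, a fold of 1.2, single libraries left out, casted replicates 1 to 4 or 5 to 8, and near-copies added.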

Additional observations from a re-analysis of the deposited data

Results flagged for a closer look

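In each group of 8 libraries, a gene's highest or lowest scaled level was marked where its gap to the nearest other library, divided by the group's range, exceeded Dixon's critical value. Of 93 groups of values, 12 had such a library, and chance alone marks about 1 group in 20. MOTS-c replicate 5 accounts for 6 of the 12, always as the highest of the casted libraries with MOTS-c. It had 242.7 TPM of Mpc2, where the others reached 198.7 TPM, and 327 TPM of Pdha1, where the others reached 278.7 TPM. Dlat stood at 84.0 TPM there against at most 72.5 TPM, and Idh3a at 464 TPM against at most 308 TPM. Me1 had 185 TPM against at most 140.2 TPM, and Me3 had 82.8 TPM against at most 58.5 TPM. All 6 values lie toward or above uncasted muscle, and this library also stood apart on the first principal component of all tested genes. The counts between casted muscle with MOTS-c and casted muscle were 0 of 31 with it and without it.

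Among casted libraries, Suclg2 was high in replicate 7, at 54.0 TPM against at most 44.9 TPM in the others. Pcx was low in casted replicate 2, at 31.2 TPM against at least 39.7 TPM. In uncasted muscle, replicate 8 was high for Mpc2, at 390.6 TPM against at most 330.8 TPM, and for Pdhb, at 251 TPM against at most 233 TPM. The same library was low for Me2, at 1.504 TPM against at least 1.96 TPM. Uncasted replicate 4 was high for Got2, at 258 TPM against at most 233 TPM.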

How the results depend on the processing

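The scaling between libraries was the choice that mattered most. In casted against uncasted muscle, deposited TPM gave 10 members lower and 10 higher, and TPM renormalized without mitochondrially encoded genes gave 14 lower and 8 higher. Over all genes the first scale gave 1091 lower and 9132 higher of 14690, and the second 1439 lower and 8278 higher of 14675. On deposited TPM these differences of members and named genes turned positive: Dld 0.19, Pdhx 0.057, Idh1 0.47, Ogdh 0.47, Suclg2 0.33, Fh1 0.0028, Pcx 0.45, Me1 0.12, Me3 0.26, Glud1 0.49, Gpt 0.091, Gpt2 0.091, Pdpr 0.065, Lipt2 0.024, Pccb 0.11 and Pck2 0.092. Without mitochondrially encoded genes the following did: Dld 0.088, Idh1 0.37, Ogdh 0.37, Suclg2 0.22, Pcx 0.35, Me1 0.018, Me3 0.16, Glud1 0.39, Pccb 0.0056 and Pck2 0.016. In casted muscle with MOTS-c against uncasted muscle, deposited TPM gave 11 lower and 8 higher, and turned these members positive: Mpc1 0.44, Dld 0.11, Ogdh 0.36, Suclg2 0.24, Pcx 0.29, Me1 0.058, Me3 0.13, Glud1 0.37, Got2 0.010, Gpt 0.0073 and Gpt2 0.21. Without mitochondrially encoded genes it gave 13 lower and 6 higher, and turned Mpc1 to 0.36, Dld 0.033, Ogdh 0.28, Suclg2 0.16, Pcx 0.22, Me3 0.054, Glud1 0.29 and Gpt2 0.13. Over all genes, deposited TPM gave 1019 lower and 8808 higher in that comparison, and TPM without mitochondrially encoded genes 1250 lower and 7962 higher. These 2 scales do not centre the typical gene, whose log2 difference between casted and uncasted muscle they put at 0.39 and 0.33. A required fold of 1.2 left 1 member higher in both comparisons with uncasted muscle. Between casted muscle with MOTS-c and casted muscle, the 0 calls became 1, higher, with casted replicates 5 to 8 alone. In that fit 678 of all 14690 genes were higher and 838 lower. The cause was not tested.

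Leaving out each library in turn gave 24 to 25 calls in casted against uncasted muscle and 24 to 26 in casted muscle with MOTS-c against uncasted muscle. Between casted muscle with MOTS-c and casted muscle it gave 0 calls each time, and 0 to 1 ratios that passed. A fit with a block for replicate number called 24 members in casted against uncasted muscle, 0 in casted muscle with MOTS-c against casted muscle and 25 in casted muscle with MOTS-c against uncasted muscle. Correlations of same-numbered libraries, after the group means were taken out, ran from -0.24 to 0.37. Differently numbered libraries were not correlated in this way, so these values cannot show whether the numbers pair the mice. Depth is unknown, so precision at low levels such as that of Me2 rests on the spread over mice alone.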

Other observations

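Of the pathway lists other than complex I and glycolysis, 6 genes had an unadjusted p under 0.05 between casted muscle with MOTS-c and casted muscle, 4 with a positive and 2 with a negative log2 difference, and none passed after adjustment. They are named after their values were seen. Pdk4, the kinase that switches pyruvate dehydrogenase off in fasting and inactivity, had a lowest, median and highest scaled level of 1023, 1401 and 1837 TPM in casted muscle with MOTS-c, against 466, 839 and 1129 TPM in casted muscle and 311, 779.9 and 943 TPM in uncasted muscle. Casted muscle with MOTS-c overlapped casted muscle (log2 difference 0.73, SE 0.21, limma unadjusted p = 0.0019, adjusted p = 0.18). Each library with MOTS-c was above each uncasted one. Pck1, the cytosolic phosphoenolpyruvate carboxykinase that draws oxaloacetate out of the cycle, had 4.92, 9.34 and 12.2 TPM in casted muscle with MOTS-c, against 2.99, 5.06 and 8.34 TPM in casted muscle and 2.38, 3.58 and 4.74 TPM in uncasted muscle. Its log2 difference between casted muscle with MOTS-c and casted muscle was 0.68 (SE 0.18, limma unadjusted p = 7.0e-04, adjusted p = 0.13). The glutamate carrier Slc25a22 had 5.42, 7.91 and 9.5 TPM in casted muscle with MOTS-c, against 4.8, 5.24 and 6.45 TPM in casted muscle and 5.45, 11.3 and 13.9 TPM in uncasted muscle. It differed by 0.43 between casted muscle with MOTS-c and casted muscle (SE 0.15, limma unadjusted p = 0.008, adjusted p = 0.25). Mcee, an epimerase of the propionyl-CoA route, differed by 0.14 (SE 0.06, limma unadjusted p = 0.031, adjusted p = 0.33). The negative differences were those of Sdhaf1, an assembly factor of succinate dehydrogenase, at -0.19 (SE 0.09, limma unadjusted p = 0.035, adjusted p = 0.34), and of Adsl, adenylosuccinate lyase of the purine nucleotide cycle, at -0.16 (SE 0.07, limma unadjusted p = 0.04, adjusted p = 0.35). Complex I had 6 of 35 genes with an unadjusted p under 0.05 (median log2 difference 0.08), and glycolysis 1 of 13 (median 0.11).

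Markers of other cells had unadjusted differences in the same comparison. For 8 macrophage markers the median log2 difference was 0.43, with 6 at an unadjusted p under 0.05, and their summed scaled level ran from 134 to 321 TPM in casted muscle with MOTS-c and from 106 to 254 TPM in casted muscle. For 6 fibroblast markers the median was also 0.43, with 4 at an unadjusted p under 0.05, and sums of 356 to 699 TPM in casted muscle with MOTS-c and 284 to 754 TPM in casted muscle. For 10 adipocyte markers the median was 0.26, with 5 at an unadjusted p under 0.05, and sums of 3467 to 5813 TPM in casted muscle with MOTS-c and 3647 to 5504 TPM in casted muscle. Most of these sums was Car3, whose log2 difference was -0.06. For 7 endothelial markers the median was 0.17, with 3 at an unadjusted p under 0.05. The part of these cells in the values above was not tested.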
